A study of Mus musculus with 4 samples.

Results

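The genes of glucose and lactate transport, glycolysis, pyruvate handling and the tricarboxylic acid (TCA) cycle were described in mouse osteoclast precursors with and without Piezo1, a mechanically gated cation channel. The members were 38 genes of 12799 in the deposited table, taken by symbol from a list of pathway genes, and all 38 were present. Bone marrow-derived monocytes of 12-week-old female mice were grown in M-CSF (30 ng/mL) and then differentiated for 3 days with M-CSF (30 ng/mL) and RANKL (50 ng/mL), which turn them into osteoclasts, the large cells that break down bone. Control mice were Piezo1fl/fl with no recombinase (n = 2), and knockout mice were Csf1r-iCre;Piezo1fl/fl (n = 2), in which the Csf1r promoter drives Cre in the monocyte lineage. An effect of the Cre transgene cannot be told apart from loss of Piezo1. The design calls the libraries biological replicates of each genotype.

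Glycolysis splits glucose into pyruvate in the cytosol. Pyruvate is then reduced to lactate and exported, or enters the mitochondrion, where pyruvate dehydrogenase and the TCA cycle oxidise it and feed the respiratory chain. Osteoclasts are known to be rich in mitochondria, and lactate and ATP made by glycolysis are known to serve their acid secretion and resorption. Many steps have several isoenzymes from separate genes, which differ in tissue, regulation and compartment.

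Levels are given as TMM-scaled CPM, the reads of a gene relative to a scaled library size, and levels of different genes are compared only after division by the length of their merged exons in kb. The libraries held between 14122118 and 18897927 gene reads, and 1 read was worth between 0.0544 and 0.0700 CPM. Piezo1 was at 430.1 and 384 CPM in controls 1 and 2 and at 61.0 and 56.2 CPM in knockouts 1 and 2, so that both libraries of each genotype match their label (log2 fold change −2.79, limma adjusted p = 8.228e-05). Markers of osteoclasts and of macrophages were present in every library (12 of 12 in the table for each list), and 0 of 5 B cell, 0 of 6 T and NK cell, 1 of 5 mast cell and basophil and 2 of 5 endothelial markers had a row. The 7 listed neutrophil markers in the table summed to 46.6 to 85.8 CPM, and the 4 erythroid and megakaryocyte markers to 8.38 to 13.0 CPM. Markers of stromal, fibroblast and osteoblast cells (15 of 16 in the table) summed to 2271 and 2830 CPM in the controls and to 1577 and 1499 CPM in the knockouts, and 1 of the 15 was called lower by limma. Of the 15, 14 had a negative log2 fold change (median −0.63), 11 were lower in the knockouts with no overlap (15.4% of all genes), and 10 were lower at an unadjusted p under 0.05 (3.55% of all genes).

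No member differed between the genotypes by the test. All 38 passed the filter on low values (at least 1 CPM in 2 libraries). With limma, 0 members were called higher and 0 lower at an adjusted p under 0.05, where 0.161% of the 11781 genes tested were called, 0.0424% higher and 0.119% lower. At an unadjusted p under 0.05 there were also 0 members, against 4.9% of all genes (1.35% higher and 3.55% lower), and edgeR and DESeq2 on the recovered reads likewise called 0 and had 0 at an unadjusted p under 0.05. Every member's limma Benjamini-Hochberg adjusted p was 0.9997. The groups did not overlap for 10 members (26.3%), 7 of them higher and 3 lower in the knockouts, against 31.9% of all genes (16.5% higher and 15.4% lower). The median log2 fold change was 0.02 over the 20 glycolysis and lactate members, 0.02 over the 18 pyruvate and TCA cycle members and 0.002 over all genes. The first median was −0.05 without control 1 and −0.07 without knockout 1, and 0.05 and 0.11 without control 2 and knockout 2. The second was −0.03 without knockout 2 and 0.02 to 0.07 without any other library. Scaling by library size alone, which moved the median of all genes to −0.02, put them at −0.0006 and −0.004.

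The size of the difference that these 4 libraries leave possible was set by the confidence intervals, which are not adjusted for the number of genes. For 36 of 38 members the 95% interval lay inside a 1.5-fold change in either direction, and for all 38 inside a 2-fold change, against 69.2% of all genes tested for the narrower range. In the fit the variance follows the mean level, and these shares were not matched for level. The exceptions to the narrower range were Hk3, with a lower limit of −0.89 on the log2 scale, and Pgam1, with an upper limit of 0.66.

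**Figure D1:**
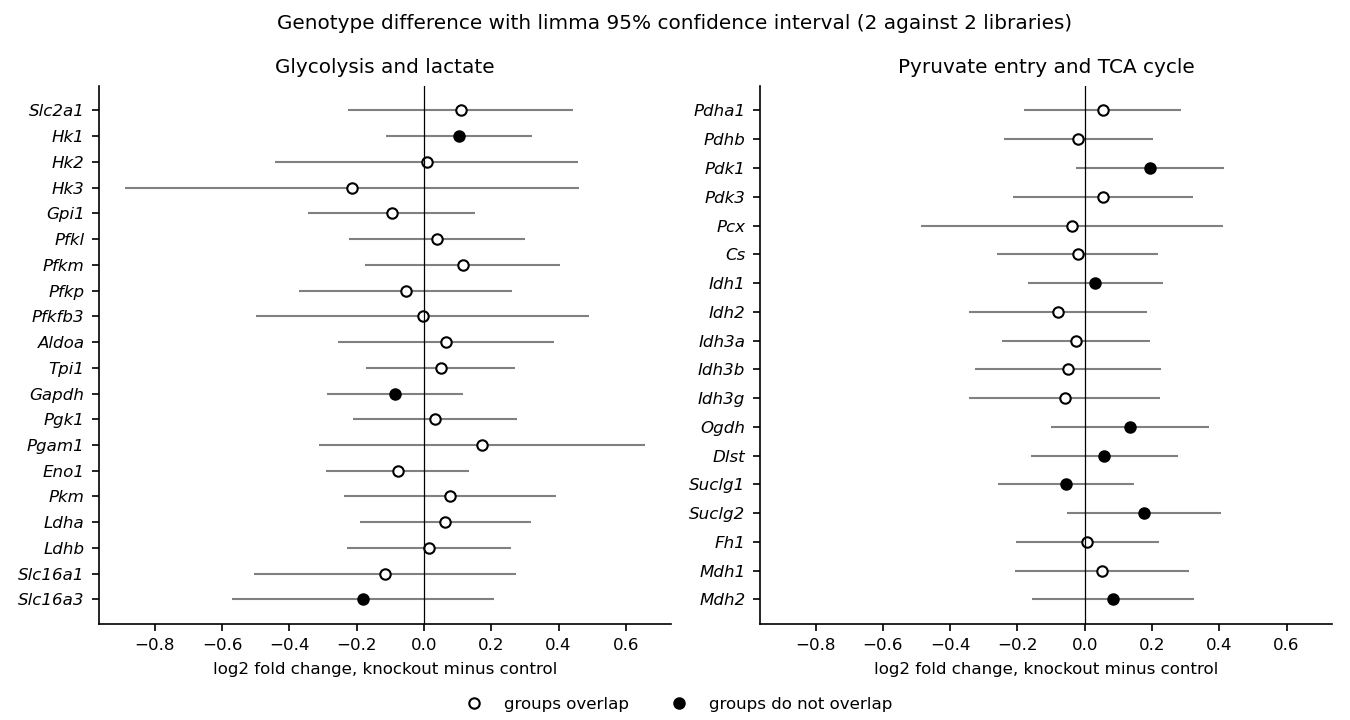
Fitted log2 fold change of each member (knockout minus control, log2(CPM + 0.5) scale) with its limma 95% confidence interval, in pathway order; filled points mark members whose groups do not overlap. All 38 intervals cross 0, and that of Hk3 is the widest, from −0.89 to 0.46.

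Among the glucose transporters and hexokinases, Slc2a1 and Hk1 had the highest levels per kb. Slc2a1 encodes the glucose transporter GLUT1, and it was at 34.3 and 27.6 CPM in the controls and 35.8 and 30.8 CPM in the knockouts. The groups overlapped, and the log2 fold change was 0.11 (95% confidence interval −0.23 to 0.44). Slc2a1 made up 93.5% to 95.7% of the summed level per kb of 3 glucose transporter genes, and Slc2a3 and Slc2a6 were each near the detection filter, at 1.54 to 1.85 and 0.63 to 1.45 CPM.

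Hexokinase phosphorylates glucose and holds it in the cell. Hk1, the isoenzyme bound to mitochondria in most tissues, was at 420 and 392 CPM in the controls and 440 and 432 CPM in the knockouts, so that both knockouts lay above both controls by a small margin (log2 fold change 0.10, interval −0.11 to 0.32). Hk2, the insulin-regulated and often induced isoenzyme, was at 24.9 and 35.6 CPM in the controls and 34.0 and 26.3 CPM in the knockouts. Hk3, an isoenzyme of myeloid cells, was at 21.8 and 20.0 CPM in the controls and at 25.7 and 12.5 CPM in the knockouts. The 2 knockout libraries thus held the highest and the lowest Hk3 level, 2.05-fold apart. Hk3 lies at chr13:55005985-55021385 on the minus strand (GRCm38), and its log2 fold change of −0.21 had an interval of −0.89 to 0.46. Per kb of merged exons, Hk1 carried 81.0% ± 2.18 of hexokinase transcript in controls and 83.1% ± 4.59 in knockouts (SD, n = 2 each), 9.08 times the level of Hk3. Hk3 and Hk2, at 5.43 and 5.06 CPM per kb, overlapped across libraries, and their order was not resolved. Hkdc1 took 0.85% or less.

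At the next steps, glucose-6-phosphate isomerase was represented by Gpi1, at 320 and 311 CPM in the controls and 272 and 320 CPM in the knockouts, with knockout 1 the lowest. Phosphofructokinase, the committing step of glycolysis, was a mix of 3 isoenzymes. Pfkp was at 125 and 154 CPM in the controls and 147 and 121 CPM in the knockouts, and the groups overlapped (log2 fold change −0.05, interval −0.37 to 0.26). Pfkm, the isoenzyme named for muscle, was at 22.7 and 20.6 CPM in the controls and 22.6 and 24.2 CPM in the knockouts, and Pfkl, named for liver, at 28.4 and 28.8 CPM in the controls and 30.6 and 28.2 CPM in the knockouts. Per kb, Pfkp held 44.1% to 52.4% of the family, Pfkm 28.0% to 35.3% and Pfkl 19.6% to 20.9%, and the levels of the 3 genes did not overlap across the libraries. Pfkp led under each definition of length, with 49.0% ± 4.70 in controls per kb of merged exons and 72.5% over the 4 libraries with no division by length.

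Pfkfb3, which makes the phosphofructokinase activator fructose 2,6-bisphosphate and is known for its induction in activated cells, was scarce. Its level was 6.88 and 6.37 CPM in the controls and 7.92 and 5.49 CPM in the knockouts, from 91 to 120 reads, and the knockouts spanned the controls. Within its family the leading gene was Pfkfb2, which lies outside the 38 members, at 91.3 to 106 CPM and 77.3% to 81.3% of the level per kb, while Pfkfb3 held 4.04% to 6.22%.

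Per kb of merged exons, aldolase and pyruvate kinase were the most abundant steps of glycolysis. The place of Gapdh depended on the divisor. All reads of a gene, divided only by sequence not found in transcripts of another gene, gave 999 CPM per kb for Gapdh and 808 for Pkm. Such a value is a level only if no read from shared sequence was counted, which is not known. Over shared and unshared sequence of the same transcripts, Gapdh was at 171 and Pkm at 500 CPM per kb. Aldoa was at 1228 and 1469 CPM in the controls and 1512 and 1306 CPM in the knockouts. Control 1 was the lowest and knockout 1 the highest, and the groups overlapped (log2 fold change 0.07, interval −0.26 to 0.39). Aldoa held 95.1% to 96.5% of the level per kb of aldolase, and Aldoc, at 61.2 to 74.8 CPM, held the rest. Pkm, which encodes pyruvate kinase M, was at 1126 and 1191 CPM in the controls and 1367 and 1094 CPM in the knockouts, with the knockouts on either side of the controls (log2 fold change 0.08, interval −0.24 to 0.39). Gene-level values do not separate its splice forms PKM1 and PKM2, and the liver and red cell gene Pklr had no row in the deposited table.

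Between them, Tpi1, triosephosphate isomerase, was at 223 and 247 CPM in the controls and 248.9 and 237 CPM in the knockouts. Pgk1, which makes the first ATP of the pathway, was at 108 and 121 CPM in the controls and 124 and 110 CPM in the knockouts. Pgam1, phosphoglycerate mutase, was at 33.7 and 46.8 CPM in the controls and 54.0 and 37.2 CPM in the knockouts, a 1.60-fold range. The libraries of each genotype differed by more (0.47 and 0.53 on the log2 scale) than the genotypes did. Its log2 fold change of 0.17 was the highest among the 20 glycolysis and lactate members, with an interval of −0.31 to 0.66. Pgam1 held 85.6% to 93.5% of its family per kb, and Pgam2 the rest.

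**Figure D2:**
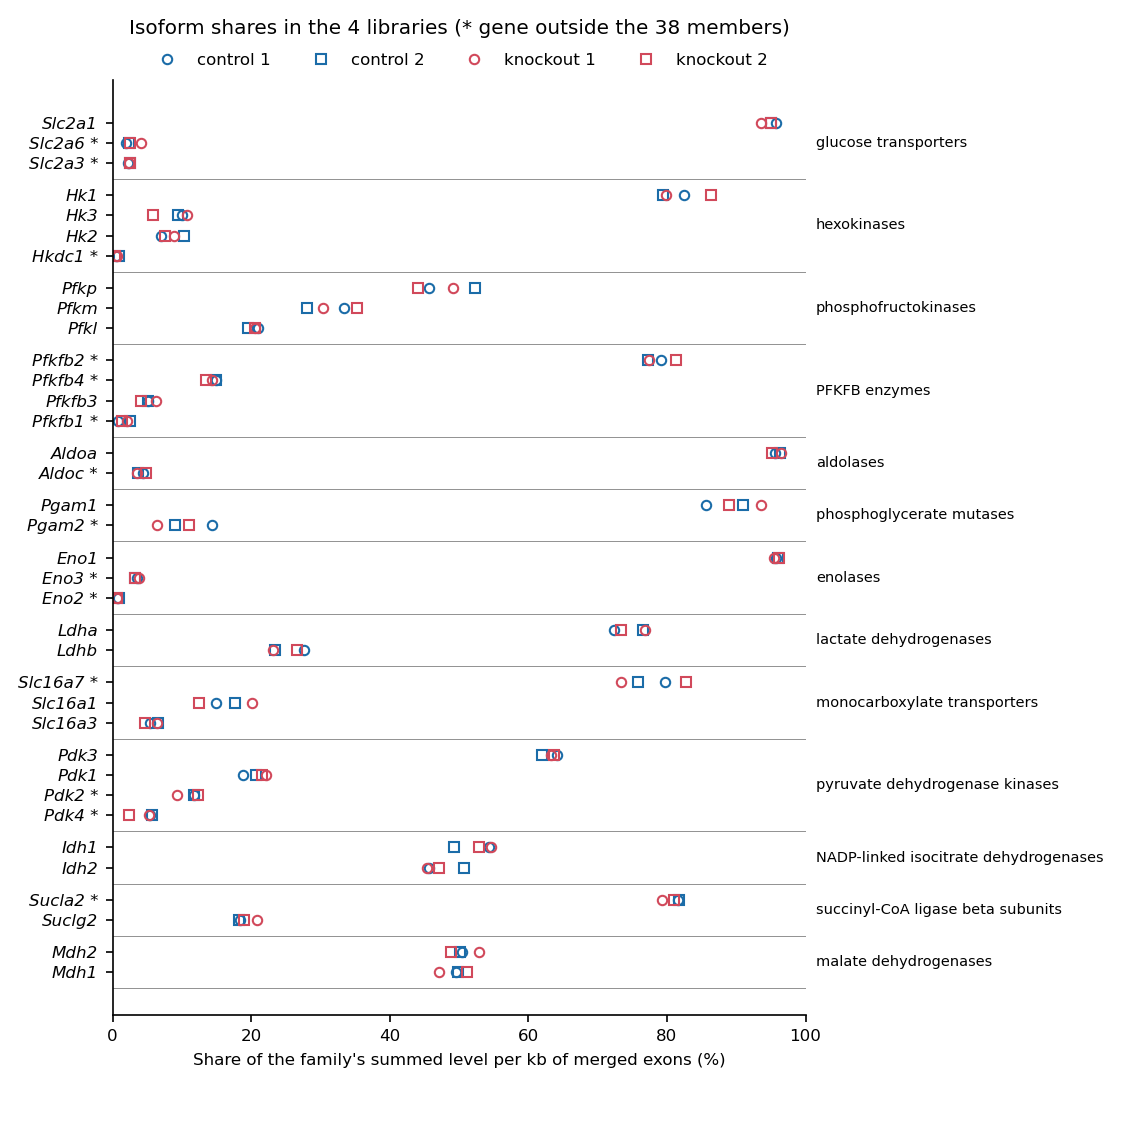
Share of each gene in the summed level per kb of its isoenzyme family, in each of the 4 libraries; an asterisk marks genes outside the 38 members. Hk1, Aldoa, Eno1 and Slc2a1 lead their families in every library, whereas Idh1 and Idh2, and Mdh1 and Mdh2, lie close to 50%. The enolase family shown is Eno1, Eno2 and Eno3, and Eno1b is left out.

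Per kb of merged exons, Gapdh and Eno1 stood far below Aldoa and Pkm. Gapdh, glyceraldehyde-3-phosphate dehydrogenase, was at 241 and 243 CPM in the controls and 232 and 224 CPM in the knockouts, both knockouts below both controls (log2 fold change −0.09, interval −0.29 to 0.11). Eno1, enolase, was at 223 and 241 CPM in the controls and 224 and 215 CPM in the knockouts, and the groups overlapped (−0.08, interval −0.29 to 0.13). The level per kb of Gapdh was 56.8 CPM and that of Eno1 42.0 CPM, against 474 CPM for Aldoa and 239 CPM for Pkm.

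These genes have near-identical copies in the genome, and how reads with several matches were treated is not stated in the sources used here. Of the 45-base windows of the longest protein-coding transcript, 82.9% of those of Gapdh, 73.5% of Eno1, 68.1% of Pgk1, 41.7% of Pgam1 and 38.1% of Pkm also occurred in transcripts annotated to another gene, against 17.0% for Aldoa and 0% for Mdh1 and Mdh2. The level, from all reads of a gene, was also divided by the unshared windows alone. Gapdh then moved from 11th to 2nd and Eno1 from 16th to 5th among the 38 members, counted over the same transcript, and Aldoa stayed 1st. Levels of Gapdh, Eno1, Pgk1, Pgam1 and Pkm are therefore uncertain in size. Whether shared reads lowered them was not tested.

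Eno1 shows how fine the distinction is. Its copy Eno1b, counted as a gene of its own at 35.1 and 33.2 CPM in the controls and 35.5 and 37.7 CPM in the knockouts, differs from Eno1 at 8 of 1305 aligned bases of the longest open reading frame (99.39% identity), with 725 bases in a row identical. The stretch of 90 bases with the most differences, from base 661 to 750 of each open reading frame in GENCODE M21 (GRCm38), is shown with the 3 differing bases in capitals and the rest in lower case.
Eno1: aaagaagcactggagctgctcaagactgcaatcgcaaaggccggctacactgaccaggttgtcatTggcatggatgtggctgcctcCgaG
Eno1b: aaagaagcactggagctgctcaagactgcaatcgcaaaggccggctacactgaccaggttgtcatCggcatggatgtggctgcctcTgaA
Within the open reading frame, a 45-base read on its own tells Eno1 from Eno1b only where it covers a differing base. Eno2 and Eno3, enolases of neurons and muscle, held 0.67% to 0.86% and 3.19% to 3.83% of the level per kb of Eno1, Eno2 and Eno3.

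For lactate, Ldha led, and the 2 member transporters Slc16a1 and Slc16a3 were low. Ldha, the lactate dehydrogenase subunit associated with lactate production, was at 438 and 476 CPM in the controls and 512 and 445 CPM in the knockouts (log2 fold change 0.06, interval −0.19 to 0.32). Ldhb, the heart-type subunit, was at 79.4 and 69.2 CPM in the controls and 73.4 and 76.5 CPM in the knockouts. Ldha held 74.4% ± 2.98 of the family per kb in controls and 75.1% ± 2.39 in knockouts (SD, n = 2 each), a difference well inside the spread between replicates.

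Slc16a1, the monocarboxylate transporter MCT1, was at 19.4 and 19.2 CPM in the controls and 20.7 and 15.2 CPM in the knockouts, so that the knockouts lay on either side of the controls (−0.12, interval −0.51 to 0.27). Slc16a3, the lactate exporter MCT4 of glycolytic cells, was at 8.51 and 8.47 CPM in the controls and 7.99 and 6.90 CPM in the knockouts, from 121 to 131 reads, with both knockouts lower (−0.18, interval −0.57 to 0.21). The leading monocarboxylate transporter was neither of them but Slc16a7, which encodes MCT2 and lies outside the 38 members, at 278 and 221 CPM in the controls and 202 and 269 CPM in the knockouts. It held 73.4% to 82.8% of the level per kb of the 3 transporters in the table, 4.87 times that of Slc16a1. Of their membrane chaperones, Emb (embigin) was at 777 to 882 CPM and Bsg (basigin) at 438 to 517 CPM.

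**Figure D3:**
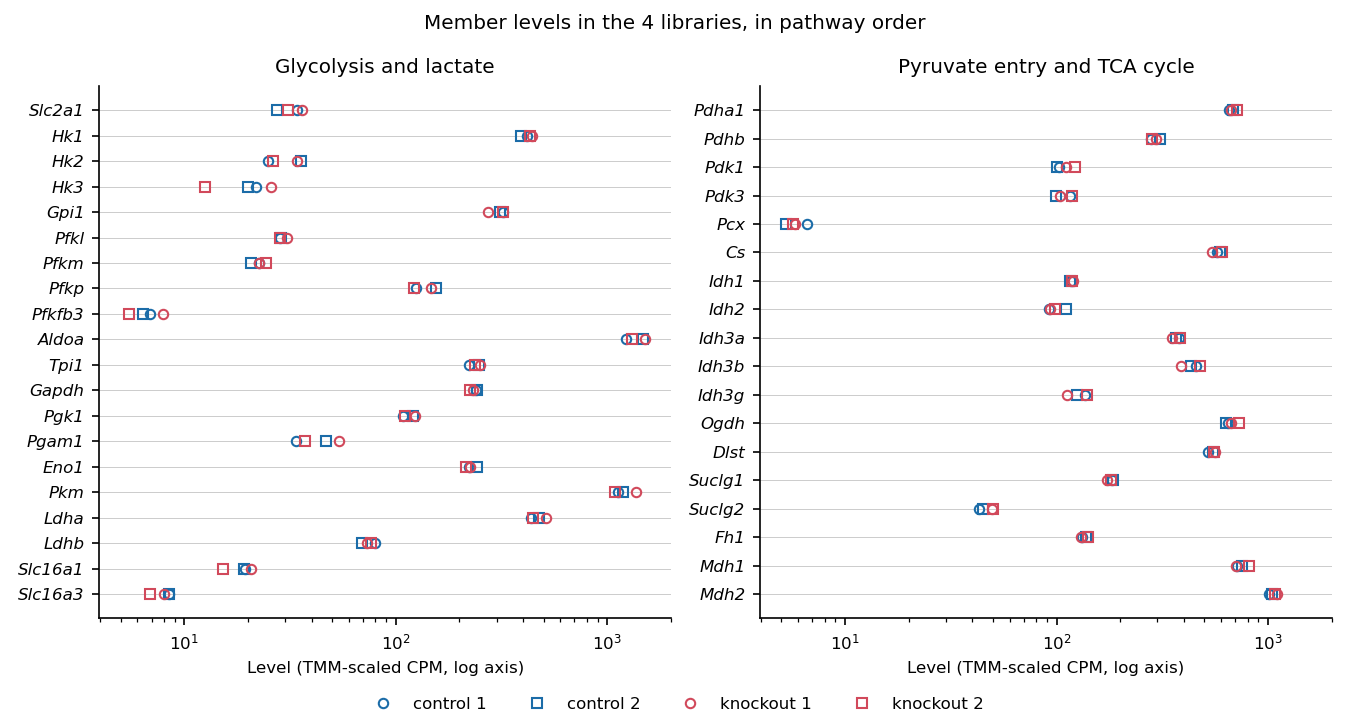
Level of each member in the 4 libraries (TMM-scaled CPM, log axis), in pathway order; controls are blue and knockouts red. Aldoa, Pkm and Mdh2 lie highest, with means of 1379, 1194 and 1059 CPM, and Pfkfb3, Slc16a3 and Pcx stay below 10 CPM.

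Of the enzymes that take up pyruvate in the mitochondrion, pyruvate dehydrogenase had far more transcript than pyruvate carboxylase. Pdha1, the catalytic alpha subunit, was at 651 and 680 CPM in the controls and 665 and 717 CPM in the knockouts, and Pdhb, the beta subunit, at 279 and 308 CPM in the controls and 296 and 283 CPM in the knockouts, with overlapping groups for each. Pcx, pyruvate carboxylase, which makes oxaloacetate from pyruvate, was at 6.62 and 5.25 CPM in the controls and 5.81 and 5.65 CPM in the knockouts, from 75 to 104 reads. The level per kb of Pdha1 and Pdhb together was 254 ± 10.6 CPM in controls against 1.25 ± 0.20 CPM for pyruvate carboxylase (SD, n = 2).

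Pyruvate dehydrogenase kinases switch the dehydrogenase off. Pdk1, known as a hypoxia-induced kinase, was at 103 and 100.5 CPM in the controls and 111 and 122 CPM in the knockouts. Both knockouts lay above both controls. The gene lies at chr2:71873224-71903858 on the plus strand (GRCm38). Its log2 fold change of 0.19 was the highest of the 38 members, with the smallest unadjusted p (0.0764, limma; interval −0.03 to 0.41), still with an adjusted p of 0.9997. Pdk3 was at 115 and 99.3 CPM in the controls and 104 and 119 CPM in the knockouts. Per kb, Pdk3 led with 62.0% to 64.1% of the family, followed by Pdk1 with 18.8% to 22.2%. With no division by length these 2 genes were level, at 43.1% and 43.0%. Pdk4, a fasting-induced kinase outside the members, was at 13.4 and 12.5 CPM in the controls and 11.9 and 6.20 CPM in the knockouts (unadjusted p = 0.078 and adjusted p = 0.9997, limma).

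In the TCA cycle, citrate synthase and the NAD-linked isocitrate dehydrogenase had overlapping groups. Cs was at 572 and 593 CPM in the controls and 541 and 609 CPM in the knockouts, with the knockouts on either side. The subunit genes Idh3a, Idh3b and Idh3g were each lowest in knockout 1 and highest in knockout 2. Idh3b, the leading subunit at 128 CPM per kb, was at 455 and 435 CPM in the controls and 387 and 476 CPM in the knockouts (log2 fold change −0.05, interval −0.33 to 0.23). Idh3g was at 136 and 125 CPM in the controls and 112 and 139 CPM in the knockouts, and Idh3a at 379 and 366 CPM in the controls and 351 and 382 CPM in the knockouts.

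The NADP-linked enzymes were close to equal. Idh1, cytosolic, was at 118 and 116 CPM in the controls and 120 and 119 CPM in the knockouts, the narrowest range of any member at 1.036-fold, and Idh2, mitochondrial, at 92.2 and 111 CPM in the controls and 93.2 and 98.6 CPM in the knockouts. Idh1 held 49.3% to 54.6% of their level per kb, the 2 genes overlapped across libraries, and Idh2 led instead when the longest transcript or the unshared sequence was used (48.2% and 47.4% for Idh1).

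The 2-oxoglutarate dehydrogenase step had both member genes above the controls in both knockouts. Ogdh, its first subunit, was at 646 and 631 CPM in the controls and 670 and 732 CPM in the knockouts (log2 fold change 0.13, interval −0.10 to 0.37), and Dlst, its succinyltransferase, at 523 and 550 CPM in the controls and 562 and 554 CPM in the knockouts (0.06, interval −0.16 to 0.28). Dhtkd1, a related dehydrogenase outside the members, was at 0.58 and 0.91 CPM in the controls and 1.45 and 1.90 CPM in the knockouts, with an unadjusted p of 0.0277 and an adjusted p of 0.943 (limma), from a level near the filter.

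Succinyl-CoA ligase pairs the shared subunit Suclg1 with a beta subunit. Suclg1 was at 182 and 185 CPM in the controls and 173 and 181 CPM in the knockouts, both knockouts lower, and the GTP-forming subunit Suclg2 was at 43.0 and 44.9 CPM in the controls and 49.5 and 49.9 CPM in the knockouts, both higher (0.18, interval −0.05 to 0.41). The ATP-forming subunit Sucla2, outside the members, led the beta subunits with 79.2% to 81.8% of the level per kb. Fh1, fumarase, was at 133 and 138 CPM in the controls and 131 and 141 CPM in the knockouts.

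Malate dehydrogenase was the most abundant step of the cycle. Mdh2, the mitochondrial enzyme, was at 1008 and 1048 CPM in the controls and 1101 and 1079 CPM in the knockouts, both knockouts higher (0.08, interval −0.16 to 0.33), and the cytosolic Mdh1 was at 715 and 751 CPM in the controls and 707 and 816 CPM in the knockouts. Per kb of merged exons they were level, at 297 and 291 CPM, with 50.3% ± 0.18 for Mdh2 in controls (SD, n = 2). By the length of the longest transcript Mdh2 took 65.2%.

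Levels per kb were summed over the isoenzyme and subunit genes of each step, with Eno1b left out of enolase. Of the 24 steps, 16 had a higher mean in knockouts and 8 a lower one, and no log2 ratio lay outside −0.09 to 0.13. Where a step adds subunits of 1 complex, as 2-oxoglutarate dehydrogenase does, the total is not an amount of enzyme. The groups did not overlap at 2 steps, Gapdh (lower) and 2-oxoglutarate dehydrogenase, which was at 173 and 173 CPM per kb in the controls and 182 and 192 CPM per kb in the knockouts. With 2 libraries against 2, a 2-sided exact permutation test cannot go below p = 0.333, so no step total or isoform share could pass 0.05. Without control 1, 10 of 24 steps were higher.

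Libraries of the same genotype also differed. Exact 95% Poisson intervals, which cover counting error only, did not overlap between the 2 knockouts for 19 of 38 members (50.0%), against 25.8% of all genes tested, and between the 2 controls for 19 of 38, against 20.7%. Counting intervals narrow as the level rises, and these shares were not matched for level. Of the 20 glycolysis and lactate members, 9 were higher in knockout 1 than in knockout 2 beyond counting error (Hk2, Hk3, Pfkp, Aldoa, Pgk1, Pgam1, Pkm, Ldha and Slc16a1) and 1, Gpi1, was lower. Of the 18 pyruvate and TCA cycle members, 0 were higher in knockout 1 and 9 were lower (Pdha1, Pdk1, Pdk3, Cs, Idh3a, Idh3b, Idh3g, Ogdh and Mdh1). Over all 11781 genes tested, 1463 were higher and 1571 lower in knockout 1 than in knockout 2 beyond counting error.

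The same contrast was seen in medians against the control mean. Glycolysis and lactate members had a median of 0.11 in knockout 1 and −0.07 in knockout 2 (log2 scale), whereas pyruvate and TCA cycle members had −0.03 and 0.07, and all genes 0.006 and 0.005. In controls 1 and 2 the medians were −0.01 and 0.01 for glycolysis and lactate and −0.02 and 0.02 for the TCA members. Between the controls, 9 glycolysis and lactate members were higher in control 2 beyond counting error and 3 were higher in control 1 (Slc2a1, Hk1 and Ldhb). Among all 11781 genes tested, 1193 were higher in control 2 and 1251 in control 1. Knockout 1 held the highest level of 12 of the 20 glycolysis and lactate members, and knockout 2 of 11 of the 18 others. Across all 11781 genes tested, knockout 1 was highest for 3055 and knockout 2 for 3159.

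**Figure D4:**
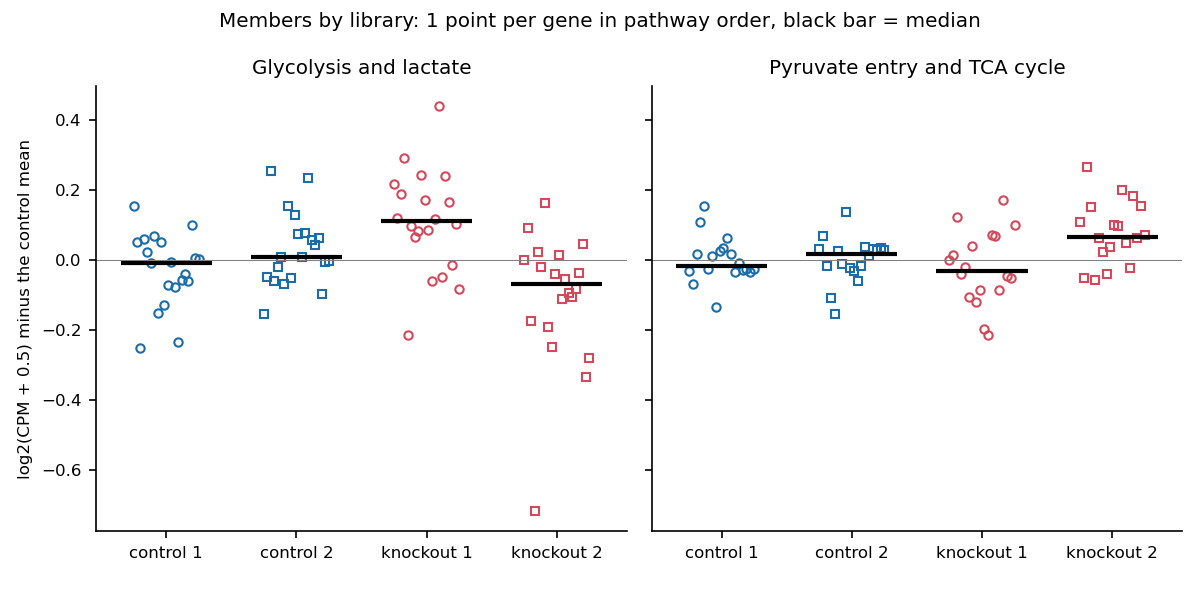
Each member's log2(CPM + 0.5) minus its mean over the 2 controls, by library, with the median of the group as a black bar. Knockout 1 lies above the controls for glycolysis and lactate (median 0.11) and knockout 2 below (−0.07), and the order is the opposite for pyruvate and TCA cycle members (−0.03 and 0.07).

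Other values also differed between libraries, not all of them between the 2 knockouts. Genes of the mitochondrial genome made up 3.13% of control 1, 2.27% of control 2, 1.38% of knockout 1 and 2.74% of knockout 2. The 12 osteoclast markers summed to 63242 and 60249 CPM in the controls and 61224 and 75884 CPM in the knockouts, highest in knockout 2, and the 12 macrophage and monocyte markers to 4000 and 3402 CPM in the controls and 3842 and 4133 CPM in the knockouts. The stromal markers were lower in both knockouts, with 1577 CPM in knockout 1 and 1499 CPM in knockout 2. Their part in the difference between libraries was not tested, and in bulk RNA a change in the number of cells of a type cannot be told apart from a change in RNA per cell.

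After the contrast between the knockouts was seen, the 250 bases before the annotated starts of members were searched for ACGTG on both strands. These are the core letters bound by hypoxia-inducible factors. They also lie inside CACGTG, the E-box bound by MYC and USF proteins. RefSeq promoters (GRCm38.p6) were found for 20 of 20 glycolysis and lactate members, and 12 of the 20 genes (60.0%) held the letters in at least 1 window, against 25.4% of the 9329 tested genes with a promoter. Of the pyruvate and TCA cycle members, 6 of 17 genes (35.3%) held them. By window, the shares were 48.4% of 31, 44.0% of 25 and 21.6% of 11945, with median GC contents of 61.6%, 60.8% and 60.0%. Of the members, 11 have more than 1 window, so windows of 1 gene share their source. All 6 windows of Ogdh, among the 25 of pyruvate and TCA cycle members, held a match. A gene counted if any of its windows matched, so genes with more windows had more chances. The 20 glycolysis and lactate genes had 31 windows, against 11945 for the 9329 tested genes. CACGTG itself was in 12.9%, 16.0% and 8.41% of the windows. A match is a run of letters and not a binding site. Whether matches have a part in the difference between libraries was not tested.

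The promoters of 3 members that were higher in knockout 1 than in knockout 2 are printed 5′ to 3′ on the gene's strand, with every ACGTG and its reverse complement in capitals. They were chosen after the values were seen. Pfkp, also higher in knockout 1, held 0 matches. Among members lower in knockout 1 beyond counting error, Pdk3, Idh3g, Ogdh and Mdh1 held matches, and Pdha1, Pdk1, Cs and Idh3b held 0. Ldha has 2 windows in RefSeq. The one printed, chr7:46845554-46845803 (plus strand), held 2 matches on the forward and 3 on the reverse strand, counting each CACGTG on both, and the other, chr7:46846832-46847081, held 0. That of Pgk1, chrX:106186850-106187099 (plus strand), held 1 on each strand, and that of Pgam1, chr19:41911621-41911870 (plus strand), held 1 forward match.
Ldha: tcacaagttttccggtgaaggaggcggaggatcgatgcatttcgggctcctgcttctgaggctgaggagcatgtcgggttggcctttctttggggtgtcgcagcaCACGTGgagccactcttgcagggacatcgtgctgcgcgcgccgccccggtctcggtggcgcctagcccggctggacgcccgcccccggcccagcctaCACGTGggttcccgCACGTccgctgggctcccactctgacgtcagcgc
Pgk1: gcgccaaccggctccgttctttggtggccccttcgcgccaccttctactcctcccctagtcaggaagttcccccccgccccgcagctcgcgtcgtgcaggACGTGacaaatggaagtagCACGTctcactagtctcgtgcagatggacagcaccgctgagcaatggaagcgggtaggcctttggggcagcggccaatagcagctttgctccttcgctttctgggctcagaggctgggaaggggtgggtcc
Pgam1: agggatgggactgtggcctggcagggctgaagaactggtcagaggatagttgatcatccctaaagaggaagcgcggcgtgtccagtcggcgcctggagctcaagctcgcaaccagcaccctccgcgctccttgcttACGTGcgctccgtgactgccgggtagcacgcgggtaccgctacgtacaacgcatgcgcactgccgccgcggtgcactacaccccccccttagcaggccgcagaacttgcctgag

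The further genes of the pathway followed the members in having no call. Of 22 tested genes of glycolysis and lactate outside the members, 0 passed and 0 had an unadjusted p under 0.05 (median log2 fold change 0.04), and Gpd2, the mitochondrial glycerol-3-phosphate dehydrogenase, had the smallest p, at 41.2 and 40.5 CPM in the controls and 48.4 and 44.2 CPM in the knockouts. Of 30 pyruvate and TCA cycle genes outside the members, 0 passed and 2 had an unadjusted p under 0.05 with limma, Dhtkd1 and Me2, and the median was 0.07. Both were higher in the knockouts, as were 1.35% of all genes tested at that threshold. Me2, the mitochondrial malic enzyme, was at 99.3 and 121 CPM in the controls and 129 and 136 CPM in the knockouts (adjusted p = 0.9997). Of 8 pentose phosphate genes 0 passed (median 0.05), and Rpe, with the smallest p, was at 78.8 and 79.0 CPM in the controls and 86.1 and 87.6 CPM in the knockouts.

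Among 15 tested regulators of glycolysis and mitochondria, 0 passed and 2 were lower at an unadjusted p under 0.05 with limma (median −0.01). Of all genes tested, 3.55% were lower at that threshold. Txnip, which limits glucose uptake and is itself a glucose-responsive gene, was at 459 and 428 CPM in the controls and 377 and 358 CPM in the knockouts, both knockouts below both controls (log2 fold change −0.27, limma adjusted p = 0.892). Myc, which activates glycolytic genes, was at 23.4 and 21.1 CPM in the controls and 17.9 and 18.0 CPM in the knockouts (−0.30, limma adjusted p = 0.9997). Hif1a, the oxygen-regulated factor, was at 88.8 to 102.1 CPM. Of 14 hypoxia-response genes outside glycolysis 0 passed and 0 had an unadjusted p under 0.05 (median 0.05), and P4ha2, a collagen prolyl hydroxylase, had the smallest p, at 5.46 and 6.65 CPM in the controls and 4.16 and 5.16 CPM in the knockouts.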

How the data were processed

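Poly(A) RNA of 4 libraries, 2 control and 2 knockout, all given the same batch in the labels, was analysed. Per the submitters' processing notes, STAR, featureCounts from Subread and edgeR were used with mm10 (GRCm38). Versions, annotation release, strand setting and any filter are not stated in the sources used here. The authors deposited a normalised signal per gene and library. All values of a library were whole multiples of what 1 read is worth (100% within 0.001 reads), so whole reads were recovered, and the signal is read here as TMM-scaled CPM.

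Genotypes were compared with limma (variance trend by mean level) on log2(CPM + 0.5), for genes reaching 1 CPM in 2 or more libraries, 2-sided, Benjamini-Hochberg over 11781 genes, with 7.52 degrees of freedom after moderation. On this scale, changes of weakly expressed genes come out too small. Nothing says the replicate libraries came from separate cultures beyond the design's term, so p-values measure the spread between these samples. Every pair of libraries differed beyond sampling noise. In simulated reads of 11658 genes for this comparison, the recovery was 30.5% (59 genes) for a 1.5-fold change, 69% (71 genes) for 2-fold and 100% (66 genes) for 4-fold. Of 11462 genes simulated without change, 11 were called. Poisson intervals are exact.

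Exon lengths, positions and transcripts came from GENCODE M21 (GRCm38), which may differ from the authors' release. Named with values were the leading member of each step, in each branch the 3 members with the highest and the 3 with the lowest log2 fold change, and of further lists genes at an unadjusted p under 0.05 or the 1 with the smallest p. Others, and the promoters, were named after their values were seen. The members and lists were chosen with earlier results of these data known. Tests ran in R 4.3.3 with DESeq2 1.42.0, limma 3.58.1 and edgeR 4.0.16. Tables and plots were made in Python 3.11.15 (matplotlib 3.10.9, pandas 2.3.3, SciPy 1.17.1, NumPy 2.4.6).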

Additional observations from a re-analysis of the deposited data

How the results depend on the processing

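No member passed an adjusted p under 0.05 in any of the 16 alternatives of the fit. Across all genes the fit called 5 higher and 14 lower. The counts were 2 and 2 without an intensity trend, 8 and 55 with DESeq2, 18 and 71 with the replicate number as a block, and 2 to 16 higher and 4 to 60 lower with 1 library left out. The replicate numbers share only a number in the labels, the deviations of same-numbered libraries correlated at −0.002, and the block changed no call among the members. With 1 library left out, the median log2 fold change of glycolysis and lactate members ranged from −0.07 (−0.068, without knockout 1) to 0.11, and that of pyruvate and TCA cycle members from −0.03 to 0.07; the cause was not tested. Without knockout 1, Hk3 had an adjusted p of 0.122 (log2 fold change −0.72), and without knockout 2, Pgam1 one of 0.733 (0.44), and in each of these fits the lone library of a genotype is assumed to vary like the other group. Steps higher in knockouts numbered 10 to 15 of 24 with 1 library left out. The leading gene held in 13 of 14 families with the longest transcript and with unshared sequence, where Idh2 led instead of Idh1. Unshared sequence was an alternative chosen after seeing the data. Without knockout 1 the leading gene also held in 13, and Mdh1 led instead of Mdh2. The pyruvate kinase family held only Pkm, so its leader could not change. The fewest reads behind a member were the 75 to 104 of Pcx, and the widest interval, that of Hk3, rested on 230 to 389 reads.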
